A study of Mus musculus with 2 samples.

Results

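The 8 genes described here encode the machinery that starts the cell cycle in G1 and the proteins that brake it. They are the D-type cyclins Ccnd1, Ccnd2 and Ccnd3, the kinases Cdk4 and Cdk6 that these cyclins switch on, and the inhibitors Cdkn1a (p21), Cdkn1b (p27) and Cdkn2c (p18). They were taken by name, 8 of 53380 features, and were followed in 718 endothelial cells of intact and 1274 of injured mouse sciatic nerve. The cells came from adult mice in which Cdh5(PAC)-CreERT2, a tamoxifen-inducible Cre driven by an endothelial promoter, had switched on an R26 tdTomato reporter preceded by a loxP-flanked stop. Both groups carried these alleles, whose reporter is spelled Chd5CreER/R26-TdTomato in the labels. Cells positive for tdTomato and negative for CD45 were sorted from uninjured nerves, called intact here, or from the lesion ("bridge") of nerves 7 days after injury, called injured here. Nerves were pooled, and the sources used here give neither the number of animals nor the tamoxifen schedule.

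Each group was 1 library. With no replicate in either group nothing was tested, and every interval below is a 95% interval for counting error only. Injury cannot be told apart from differences between the animals, the site sampled (uninjured nerve or bridge), the sorts or the sequencing of the 2 libraries.

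A quiescent endothelial cell has to pass the restriction point of G1 before it can divide. D-type cyclins bind Cdk4 or Cdk6 and begin to inactivate the retinoblastoma protein, which releases E2F factors and the genes for DNA replication. p18 blocks Cdk4 and Cdk6 directly, whereas p21 and p27 block the kinases that act with cyclins E and A and also bind the D-type complexes. In resting vessels most endothelial cells are out of the cycle, and after injury sprouting vessels add cells by division behind the leading tip cells.

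Expression is given as CPM, the unique molecules (UMIs) of a gene summed over the cells of a group, per 1000000 UMIs of all genes in those cells. The intact cells used held 4542225 UMIs with a median of 4461 per cell, and the injured cells 19989024 with a median of 11684. The libraries shared 298 barcodes, and a cell whose barcode had at least 5 times its UMIs in the other library was left out, which removed 100 intact and 48 injured endothelial cells. The 8 pan-endothelial marker genes were all detected, with sums of 6799 CPM (intact) and 5009 CPM (injured). Summed pericyte and smooth muscle markers were lower after injury, at 1057 and 213 CPM. Tagln (657 and 159 CPM) and Acta2 (333 and 46.1 CPM) made up most of that sum. Rgs5, a pericyte gene, was at 57.2 and 4.85 CPM, and Pdgfrb (2.42 and 0.600 CPM) and Myh11 (1.32 and 0.150 CPM) were low. Fibroblast markers summed to 60.5 and 36.1 CPM, myeloid ones to 48.2 and 8.05 CPM, lymphoid ones to 10.8 and 1.95 CPM and Schwann cell ones to 5.94 and 1.30 CPM. Ptprc, which encodes CD45, and C1qa had no UMI in the cells of either library used here.

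In pooled endothelium Ccnd2 and Cdkn1a were lower and Cdk4 higher after injury, while the other 5 genes differed less than 2-fold. A gene was counted as lower or higher where its CPM differed at least 2-fold after 5 CPM had been added to both values. By that count 2 of the 8 genes were lower, beside 6.82% of all 8268 measured genes (mean over both libraries 10 CPM or more), and 1 was higher, beside 4.79%. The median log2 ratio of the 8 genes was -0.04, and that of all measured genes was 0.04, with a 10th percentile of -0.77 and a 90th of 0.72.

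**Figure D1:**
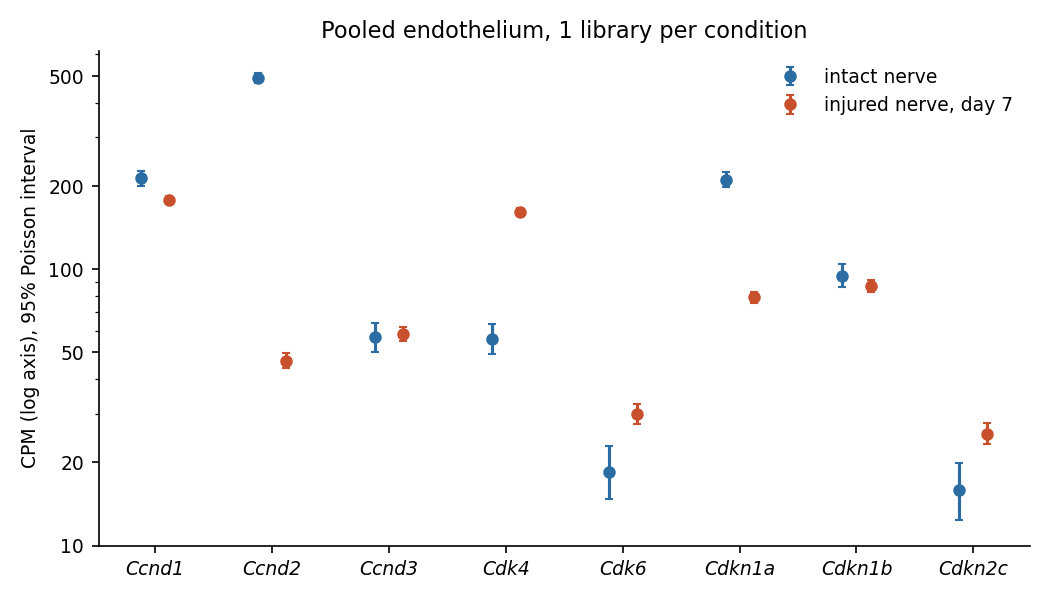
Level of each gene in pooled endothelium (CPM, log axis) in the intact (blue) and the injured library (red), with exact Poisson 95% intervals for counting error. Ccnd2 (492 and 46.7 CPM) and Cdkn1a (211 and 79.1 CPM) lie lower in the injured library, and Cdk4 (56.1 and 161.6 CPM) lies higher.

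Among the cyclins, Ccnd2 (ENSMUSG00000000184.12, chr6:127125162-127152193, minus strand) differed most. It was at 492 CPM in the intact library (2235 UMIs, interval 472 to 513 CPM) and at 46.7 CPM in the injured library (934 UMIs, 43.8 to 49.8 CPM), a level 10.5-fold lower (9.75 to 11.4). Of all measured genes 0.278% had a log2 ratio at or below that of Ccnd2. Ccnd1 (ENSMUSG00000070348.5, chr7:144929931-144939925, minus strand), the D-type cyclin best known as a target of mitogen signalling, was at 213.6 and 177.9 CPM. That is a ratio of 0.833 (0.776 to 0.895), a much smaller difference than that of Ccnd2. Ccnd3 (ENSMUSG00000034165.16, chr17:47505051-47599691, plus strand) was at 56.8 and 58.5 CPM, a ratio of 1.03 (0.899 to 1.18) whose interval includes 1. The 3 cyclins together were at 762 CPM in the intact and 283 CPM in the injured library, 2.69-fold lower (2.58 to 2.81).

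Both kinases had higher levels after injury. Cdk4 (ENSMUSG00000006728.12, chr10:127063534-127067920, plus strand) was at 56.1 CPM in the intact library (255 UMIs, 49.5 to 63.5 CPM) and 161.6 CPM in the injured library (3230 UMIs, 156.1 to 167.3 CPM). Its ratio of 2.88 (2.53 to 3.28) stood at percentile 98.0 of all measured genes. Cdk6 (ENSMUSG00000040274.11, chr5:3341485-3531008, plus strand) was at 18.5 and 30.0 CPM, a ratio of 1.62 (1.29 to 2.06) that does not reach 2-fold.

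Of the inhibitors, Cdkn1a (ENSMUSG00000023067.13, chr17:29090976-29100727, plus strand), a main target of p53, was at 211 CPM in the intact library (959 UMIs, 198 to 225 CPM) and 79.1 CPM in the injured library (1581 UMIs, 75.2 to 83.1 CPM). The level was 2.67-fold lower (2.46 to 2.89), and 4.02% of all measured genes had a log2 ratio at or below that of Cdkn1a. Cdkn1b (ENSMUSG00000003031.14, chr6:134920401-134925513, plus strand), held high in quiescent cells mainly by slow protein turnover, was at 94.9 and 86.9 CPM, a ratio of 0.916 (0.824 to 1.02). Cdkn2c (ENSMUSG00000028551.14, chr4:109660876-109667189, minus strand) was at 15.9 CPM (72 UMIs) and 25.4 CPM (508 UMIs), a ratio of 1.60 (1.25 to 2.08). Positions are those of GENCODE for GRCm38, where 7 of the 8 genes had the same ID and version as in the files and Cdkn1a the same ID.

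The 3 inhibitors were summed to 322 and 191 CPM, a level 1.68-fold lower (1.58 to 1.79). With equal weight for 5 classes (those of 20 or more cells in each library, EC_VEN-PV- included), Cdkn1a no longer reached 2-fold (log2 ratio -0.66, against -1.36), and likewise with all barcodes (-0.73). The Ccnd2 log2 ratio of -3.26 was -2.08 and -1.99 in these settings, and -2.59 when CPM were averaged over cells. Among the 242 intact and 399 injured cells with no UMI of 32 markers of other cell types, the log2 ratios were -2.80 for Ccnd2, 1.22 for Cdk4 and -1.35 for Cdkn1a.

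The injured cells were deeper, so shares of cells with a UMI were also compared after each cell was thinned to 3000 UMIs, which left out 236 intact and 51 injured cells. Thinned shares for Ccnd2 were 60.6% of intact cells (56.1 to 65.0%) and 11.6% of injured cells (9.87 to 13.5%), against unthinned shares of 64.8% and 25.1%. For Cdk4 they were 14.3% and 34.2% (26.3% and 71.4% unthinned), and for Cdkn1a 37.1% and 15.7% (42.1% and 39.2% unthinned). Thinning thus left the direction of the CPM in these 3 genes, and for Cdkn1a the unthinned shares alone would have shown little difference. The other genes had thinned shares close to each other, with 39.2% and 35.4% for Ccnd1, 15.6% and 15.0% for Ccnd3, 26.6% and 23.5% for Cdkn1b, 5.19% and 7.85% for Cdk6 and 5.19% and 6.54% for Cdkn2c. No class in the data is known to lack these genes, so no background share could be set beside these values.

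Several of these genes overlap a gene on the opposite strand, and the sources used here do not say whether the counting used strand. Cdk4 shares 641 bases with Tspan31, whose levels were 51.3 CPM (intact) and 60.1 CPM (injured), and reads of the pair cannot be told apart if strand was not used. Ccnd1 overlaps Oraov1 (14.5 and 8.45 CPM) and Ccnd3 overlaps Bysl (15.4 and 19.0 CPM), and the antisense features over Ccnd2 and Cdk6 had at most 3 UMIs in either library.

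Promoter sequence is shown for Cdk4 and Cdkn1a, the genes past 2-fold that had a RefSeq entry (GRCm38.p6). Of the 8 genes 6 matched, and Ccnd1 and Ccnd2 did not. Each sequence is the 250 bases before a transcription start, 5′ to 3′ on the gene's strand. For Cdk4 the window is chr10:127063285-127063534 (plus strand), and for Cdkn1a it is the one before the second listed start, chr17:29093519-29093768 (plus strand), inside the annotated gene. Capitals mark E-boxes (CACGTG, the core bound by Myc, Usf and related factors) and GC boxes (GGGCGG, bound by Sp1 and related factors), searched on both strands, so that a GC box on the other strand reads CCGCCC.
Cdk4: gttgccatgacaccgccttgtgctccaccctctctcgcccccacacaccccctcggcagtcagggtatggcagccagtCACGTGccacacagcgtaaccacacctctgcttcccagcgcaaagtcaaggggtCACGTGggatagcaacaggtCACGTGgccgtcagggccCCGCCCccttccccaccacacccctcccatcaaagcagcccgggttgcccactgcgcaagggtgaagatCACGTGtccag
Cdkn1a: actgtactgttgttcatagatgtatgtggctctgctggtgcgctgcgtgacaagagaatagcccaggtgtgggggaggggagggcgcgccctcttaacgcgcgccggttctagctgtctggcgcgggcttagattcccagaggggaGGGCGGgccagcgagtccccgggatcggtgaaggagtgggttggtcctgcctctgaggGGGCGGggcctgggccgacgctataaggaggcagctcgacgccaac
The Cdk4 window held 4 E-boxes, whose first bases lay 172, 118, 98 and 11 bases before the start, and 1 GC box at 80 bases. Of 32851 mouse promoter windows of this length 6.02% held an E-box, and 7 windows (0.0213%) held at least 4. The Cdkn1a window held 2 GC boxes, at 104 and 46 bases, and no E-box, and 32.7% of all windows held a GC box. The window before the first Cdkn1a start held neither motif. A match in these letters describes the sequence and says nothing of binding in these cells.

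The authors' table divides the endothelial cells into 9 classes made from the expression of the same cells, so levels by class are a description. The sources used here do not spell out "PV" in the class names. Labels with under 20 cells in a library are not described there. Of the classes large enough in both, EC_ART (arterial), EC_BAR (barrier), EC_CAP-PV- (capillary) and EC_VEN-PV+ (venous) were led by markers fitting their names in both. EC_VEN-PV- had no venous marker among its leading genes in either library, and haemoglobin genes led it in the intact one. Its summed venous markers were at 1176 CPM (intact) and 5706 CPM (injured). The values of EC_VEN-PV- are given side by side only. The leading genes of EC_BAR also included Acta2 and Lcn2 in the intact library and the interferon-response genes Ifit2, Rsad2 and Ifit1 in its 36 injured cells. EC_CAP-PV+ in intact nerve was not led by capillary markers, and EC_IMMAT had no marker list of its own. EC_IMMAT (260 cells), EC_PROLIF (162 cells) and EC_TIP (100 cells) were described in the injured library only, since the intact one held 4, 11 and 4 such cells.

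**Figure D2:**
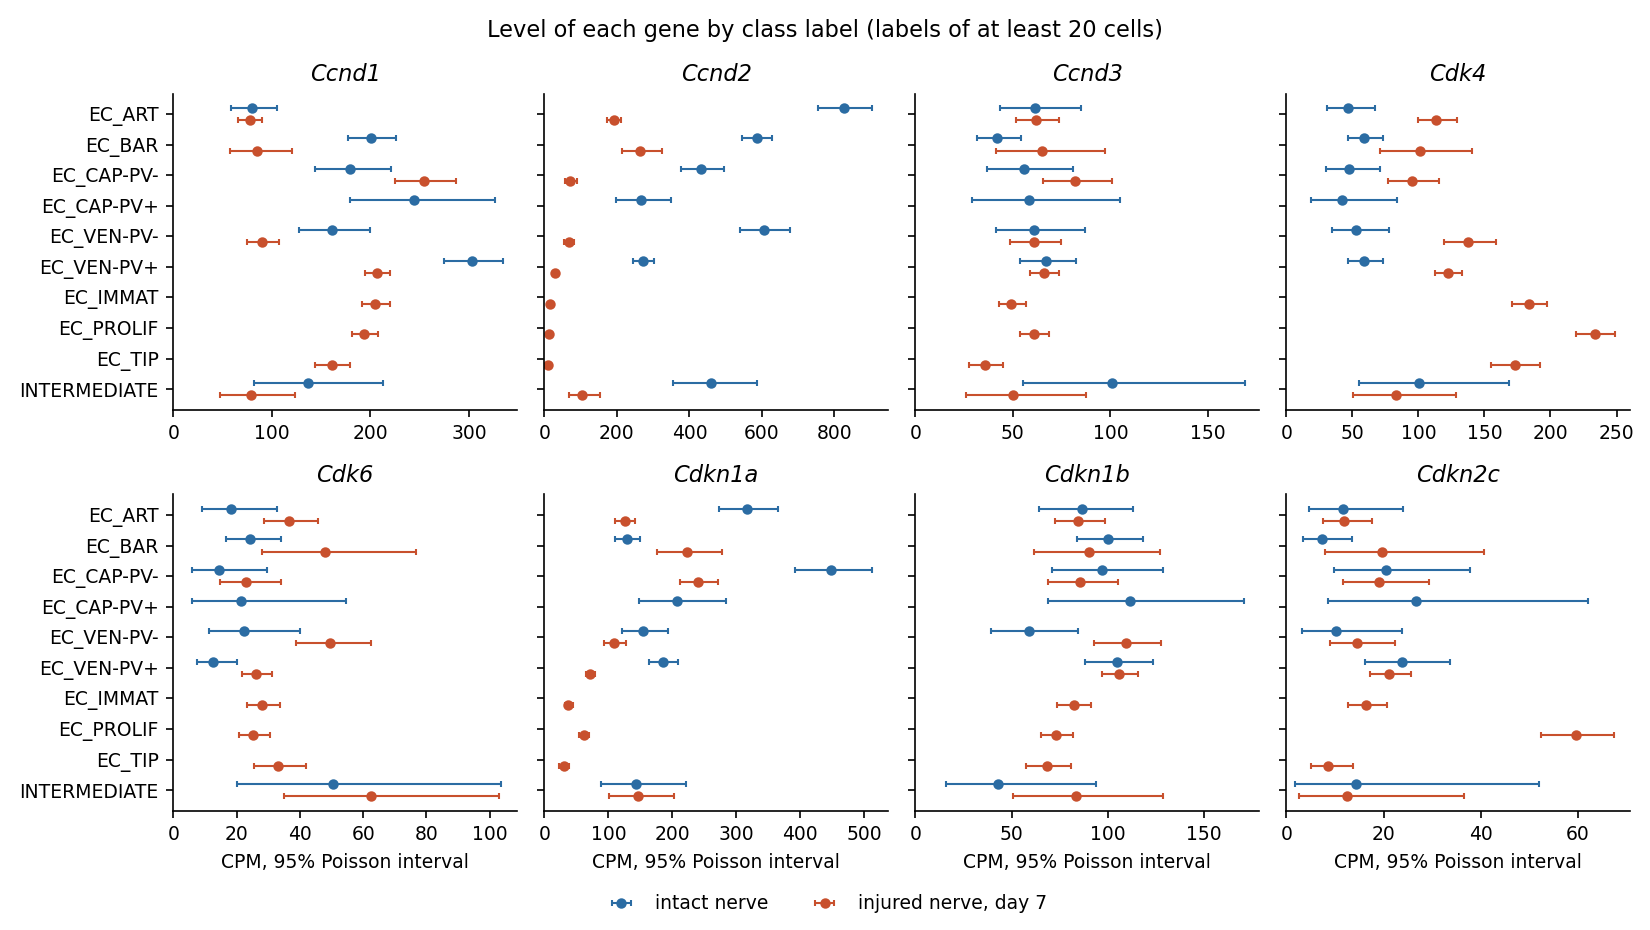
Level of each gene (CPM, 95% Poisson interval for counting error) by class label in the intact (blue) and the injured library (red), for labels of at least 20 cells. INTERMEDIATE is a label of the authors that was left out of the pooled values. Ccnd2 is higher in the intact library in every label drawn for both, and its injured values run from 265 CPM in EC_BAR to 10.7 CPM in EC_TIP.

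Ccnd2 had the widest range of levels over classes in the injured library. In intact nerve it was highest in EC_ART (826 CPM, interval 755 to 902), apart from the next classes, EC_VEN-PV- (605 CPM) and EC_BAR (586 CPM), whose intervals overlapped. EC_CAP-PV- followed at 432 CPM, and EC_VEN-PV+ (273 CPM) and EC_CAP-PV+ (266 CPM) were lowest and overlapped. In injured nerve EC_BAR (265 CPM, 214 to 324) and EC_ART (192 CPM, 174 to 213) stood above all other endothelial classes. EC_CAP-PV- (71.3 CPM) and EC_VEN-PV- (66.9 CPM) overlapped each other, and EC_VEN-PV+ was at 28.0 CPM. The lowest were EC_IMMAT (16.3 CPM), EC_PROLIF (11.9 CPM) and EC_TIP (10.7 CPM), which overlapped in their intervals. The highest class was 24.9-fold above the lowest in injured nerve and 3.11-fold in intact nerve.

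Within the 4 classes that could be compared, Ccnd2 was at least 2-fold lower after injury in each. It was 9.75-fold lower in EC_VEN-PV+ (7.98 to 12.0), 6.06-fold in EC_CAP-PV- (4.64 to 8.0), 4.29-fold in EC_ART (3.75 to 4.92) and 2.21-fold in EC_BAR (1.79 to 2.77). The intervals of EC_BAR and EC_ART, the classes with the highest injured levels, lay below those of EC_VEN-PV+, though the difference between classes was not tested. Summed pericyte and smooth muscle markers were lower after injury in EC_VEN-PV+ (1483 and 339 CPM), EC_CAP-PV- (333 and 48.5 CPM) and EC_BAR (1452 and 166 CPM) and higher in EC_ART (111 and 286 CPM). Their part in the Ccnd2 values was not tested.

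Beside the background of each class, EC_ART had Ccnd2 and Cdkn1a lower (2 of 8 genes, against 7.31% of all measured genes) and Cdk4 higher (1 of 8, against 6.07%). EC_BAR had Ccnd1 and Ccnd2 lower (2 of 8, against 6.87%) and Cdkn2c higher (1 of 8, against 6.29%). That Cdkn2c value rests on 10 and 7 UMIs, and its ratio of 2.69 has an interval of 0.867 to 7.81 that includes 1. EC_CAP-PV- had Ccnd2 lower (1 of 8, against 9.21%) and no gene higher (5.76% of all genes). EC_VEN-PV+ had Ccnd2 and Cdkn1a lower (2 of 8, against 4.61%) and no gene higher (3.77% of all genes).

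**Figure D3:**
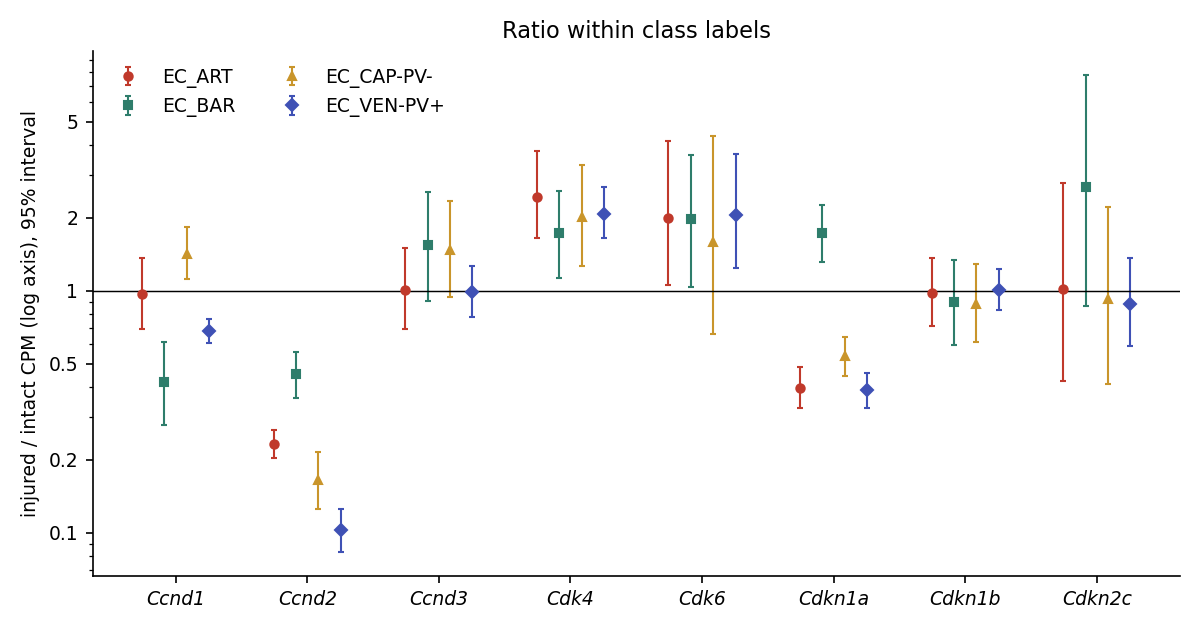
Ratio of injured to intact CPM (log axis) for each gene in the 4 classes that could be compared, with exact 95% intervals for counting error and a line at 1. Ccnd2 lies below 1 and Cdk4 above 1 in all 4 classes, while Ccnd1 and Cdkn1a lie on both sides.

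Cdk4 was higher after injury in all 4 classes with overlapping intervals. Its ratio was 2.45 (1.65 to 3.76) in EC_ART, 2.08 (1.65 to 2.67) in EC_VEN-PV+, 2.01 (1.27 to 3.31) in EC_CAP-PV- and 1.73 (1.13 to 2.59) in EC_BAR. With 5 CPM added, only EC_ART reached 2-fold. In intact nerve the classes ran from 42.5 to 58.8 CPM with overlapping intervals. In injured nerve EC_PROLIF was highest (233 CPM, 219 to 249), followed by EC_IMMAT (184 CPM) and EC_TIP (173 CPM), whose intervals overlapped. The remaining endothelial classes lay between 95.1 and 137.9 CPM, so the 3 classes with under 20 cells in intact nerve had the highest Cdk4 levels. The interval of EC_TIP (155 to 192 CPM) overlapped that of the next class, EC_VEN-PV- (119 to 158 CPM).

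Cdk6 was also above 1 in each class, with ratios of 2.06 (1.24 to 3.66) in EC_VEN-PV+, 2.00 (1.05 to 4.17) in EC_ART, 1.98 (1.03 to 3.65) in EC_BAR and 1.58 (0.662 to 4.35) in EC_CAP-PV-. It rested on 7 to 33 UMIs per class in intact nerve, and no class reached 2-fold with 5 CPM added. In contrast to Cdk4, the injured level of Cdk6 in EC_PROLIF (25.2 CPM) was among the lower ones, and EC_VEN-PV- had the highest of the endothelial classes (49.4 CPM), overlapping EC_BAR (47.9 CPM).

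Ccnd1 differed in direction between classes. It was 2.37-fold lower in EC_BAR (200.6 CPM with 273 UMIs in intact, 84.5 CPM with 30 UMIs in injured nerve), at a ratio of 0.682 in EC_VEN-PV+ (303 and 207 CPM), at a ratio of 0.970 whose interval includes 1 in EC_ART (79.7 and 77.3 CPM) and at a ratio of 1.42 in EC_CAP-PV- (179 and 255 CPM). EC_ART had the lowest Ccnd1 level in both libraries, although in injured nerve its interval overlapped those of EC_BAR and EC_VEN-PV- (89.8 CPM). Thus the arterial class, with the highest Ccnd2 level of intact nerve, had the lowest Ccnd1 level. Ccnd3 varied little, from 41.9 to 66.9 CPM over the intact and from 35.5 to 81.8 CPM over the injured endothelial classes, lowest in EC_TIP.

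The make-up of D-type cyclin UMIs therefore differed between libraries and classes. These are shares of UMIs, and each gene's share is compared across libraries and classes. How well each of the 3 transcripts was captured is not known, so the levels of the 3 genes are not ranked. The Ccnd2 share was 64.5% of the 3463 D-type cyclin UMIs of pooled intact endothelium and 16.5% of the 5659 of injured endothelium. The Ccnd1 share was 28.0% and 62.8%. After injury the Ccnd2 share was higher in EC_BAR (63.9%, 55.6 to 71.7%) and EC_ART (58.0%, 54.2 to 61.8%) than in the other classes, beside 70.7% and 85.4% in intact nerve. It was 17.5% in injured EC_CAP-PV- (64.8% in intact) and 9.29% in EC_VEN-PV+ (42.4% in intact). In EC_IMMAT, EC_PROLIF and EC_TIP the Ccnd2 share was 6.04%, 4.46% and 5.15%, and the Ccnd1 share was 72.8 to 77.7%.

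**Figure D4:**
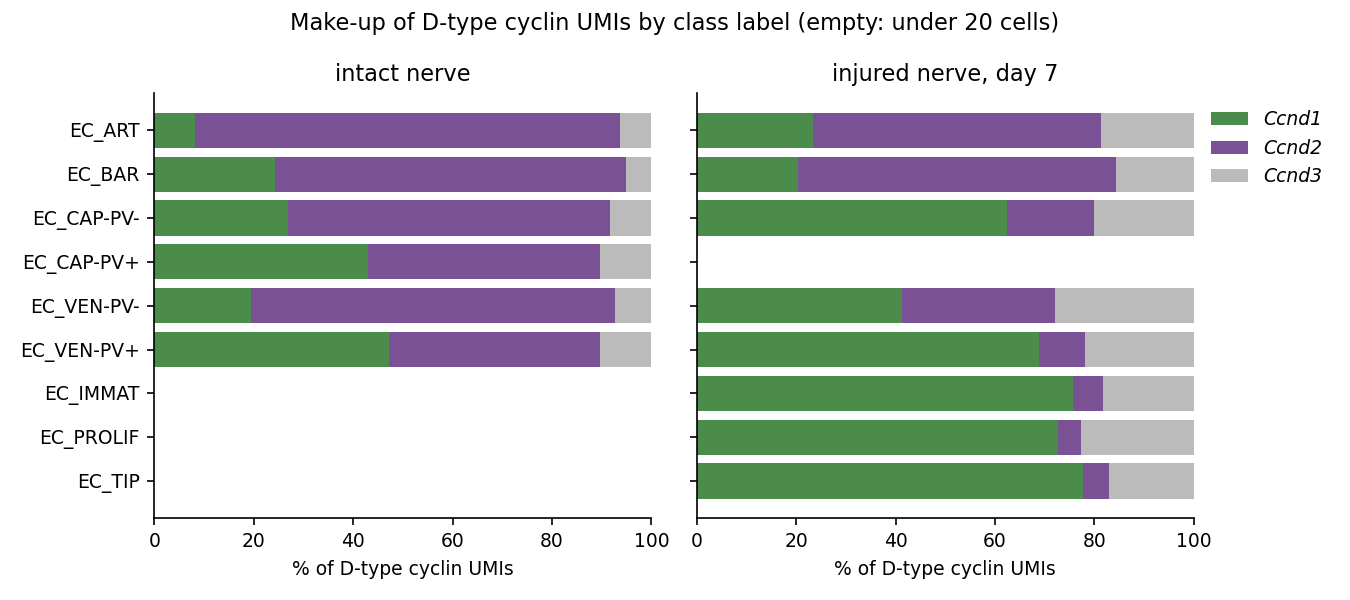
Make-up of D-type cyclin UMIs (% of the UMIs of Ccnd1, Ccnd2 and Ccnd3) by class label in the intact (left) and injured library (right), with labels under 20 cells left empty. Ccnd2 (purple) gives 85.4% in intact EC_ART and 4.46% in injured EC_PROLIF, and Ccnd1 (green) gives 72.8% or more in injured EC_IMMAT, EC_PROLIF and EC_TIP.

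In single cells thinned to 3000 UMIs, both Ccnd1 and Ccnd2 were detected in 23.7% of 482 intact cells, Ccnd2 without Ccnd1 in 36.9%, Ccnd1 without Ccnd2 in 15.6% and neither in the rest. Of 1223 injured cells 3.35% had both, 8.26% Ccnd2 without Ccnd1 and 32.1% Ccnd1 without Ccnd2. Pooled over classes, Ccnd2 was found in 60.3% of intact cells with a Ccnd1 UMI and 60.8% of those without one, and in 9.47% and 12.8% in injured nerve. Within classes the order went both ways, with 80.5% and 67.5% in intact EC_BAR (41 and 80 cells), 28.6% and 18.6% in injured EC_CAP-PV- (28 and 43 cells), 32.1% and 14.8% in injured EC_VEN-PV- (28 and 88 cells) and 25.0% and 42.3% in injured EC_ART (20 and 111 cells). By class the Ccnd2 share of thinned cells ran from 86.7% (52 of 60 cells, 75.4 to 94.1%) in intact EC_ART to 1.27% (2 of 157 cells, 0.155 to 4.53%) in injured EC_PROLIF.

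Cdkn1a was lower after injury in EC_VEN-PV+ (185 and 71.7 CPM, 2.58-fold, 2.18 to 3.05), EC_ART (317 and 126 CPM, 2.52-fold, 2.07 to 3.05) and EC_CAP-PV- (449 and 241 CPM, 1.87-fold, 1.55 to 2.24). In EC_BAR it was higher, at 129 CPM (175 UMIs) and 223 CPM (79 UMIs), a ratio of 1.73 (1.31 to 2.27). EC_BAR had the lowest Cdkn1a level of the intact endothelial classes, and in injured nerve its level overlapped the highest, EC_CAP-PV-. The 36 injured EC_BAR cells were also led by interferon-response genes, and the part of this in the Cdkn1a value was not tested. The lowest injured levels were in EC_TIP (30.4 CPM, 23.2 to 39.2) and EC_IMMAT (37.6 CPM, 31.9 to 44.0), which overlapped, while EC_PROLIF was at 61.4 CPM (54.1 to 69.4). The dividing class was thus not the lowest in p21 transcript.

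Cdkn1b differed little by class or library. Its ratios in the 4 classes lay between 0.884 and 1.01, and each interval included 1. Intact endothelial classes ran from 58.9 to 112 CPM and injured ones from 68.5 to 109 CPM, where EC_TIP and EC_PROLIF (73.1 CPM) were lowest. Cdkn2c had a sharp class pattern in injured nerve, with 59.5 CPM (52.3 to 67.3) in EC_PROLIF and 8.63 to 21.0 CPM in the other endothelial classes. Its ratio was 1.02 in EC_ART, 0.924 in EC_CAP-PV- and 0.884 in EC_VEN-PV+, each with an interval that includes 1, beside the EC_BAR ratio of 2.69 given above, which rests on 10 and 7 UMIs. The pooled log2 ratio of Cdkn2c was 0.54 in all cells used and 0.50 in those of at least 3000 UMIs. With dividing cells left out of the latter it was 0.04.

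Injured cells were also divided by phase genes, a grouping chosen after the data were seen and one that uses none of the 8 genes. After thinning, 156 cells had UMIs of at least 2 different genes of a mitosis list. Of the cells with none, 146 had UMIs of at least 2 replication genes and 769 did not. Intact nerve had 4 cells with mitosis genes, too few to describe. The cells with mitosis genes were deeper, with a median of 20605.5 UMIs against 12496.5 and 10692, and 123 of the 156 were EC_PROLIF.

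**Figure D5:**
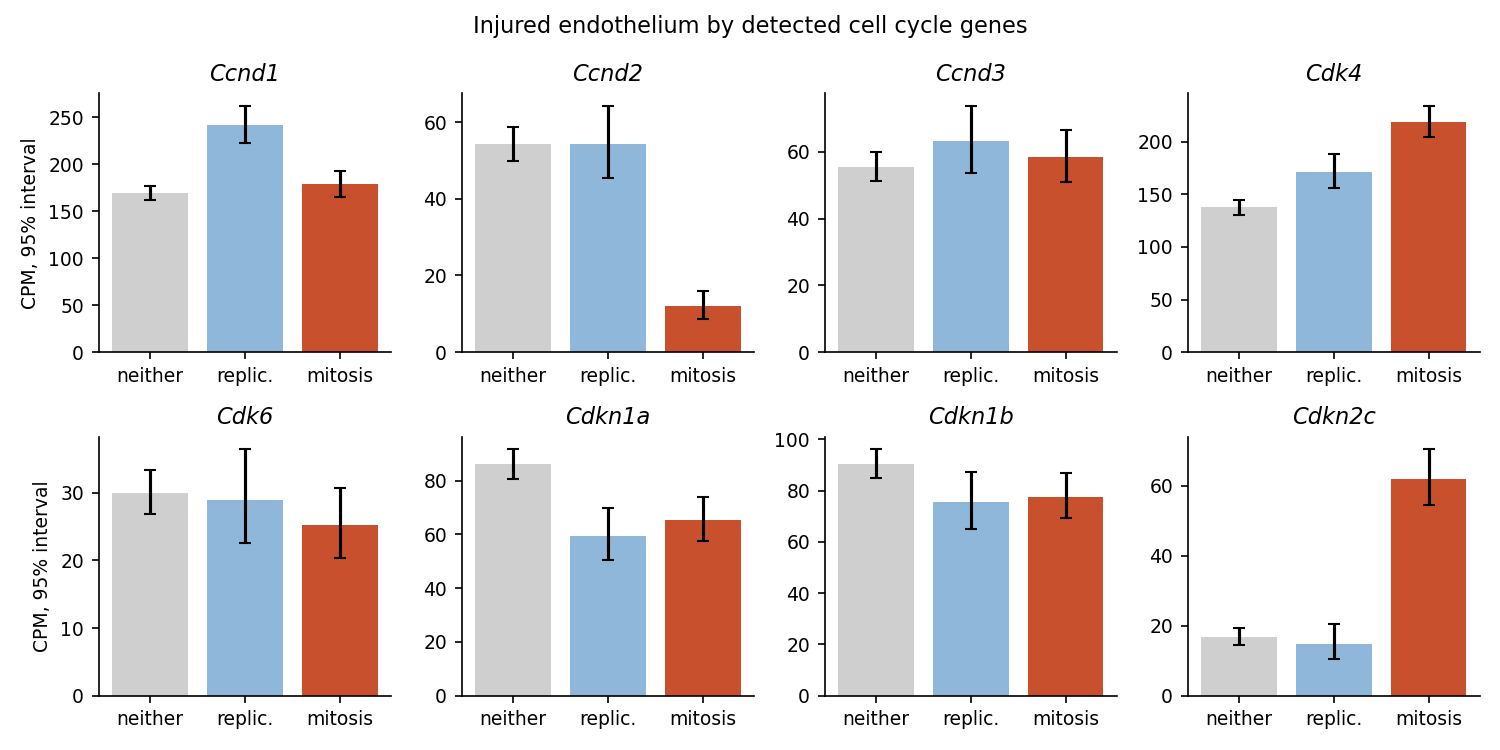
Level of each gene (CPM, 95% Poisson interval for counting error, each panel with its own axis from 0) in injured endothelial cells with neither set of phase genes (769 cells), with replication genes only (146 cells) or with mitosis genes (156 cells). Cdkn2c is high (62.1 CPM) and Ccnd2 low (11.9 CPM) in the last group, and Ccnd1 is highest (242 CPM) in the replication group.

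Ccnd2 was at 54.2 CPM in cells with neither set, 54.3 CPM in cells with replication genes and 11.9 CPM (8.75 to 15.9) in cells with mitosis genes. Ccnd1 was at 169, 242 (223 to 262) and 179 CPM, highest in the replication group. Cdk4 was at 138, 172 and 219 CPM, with intervals that did not overlap from one group to the next. Its shares of thinned cells were 33.3%, 32.9% and 41.7%, so by share only the mitosis group was higher. Cdkn2c was at 16.7, 14.9 and 62.1 CPM (54.4 to 70.4), so its level in the replication group was like that of the cells with neither set. Cdkn1a was at 86.0, 59.5 and 65.2 CPM, lower in CPM in both phase groups. Its shares of thinned cells were close to each other, at 15.7%, 13.0% and 16.0%, and not lower in the mitosis group. Cdk6 (30.0, 28.9 and 25.2 CPM), Ccnd3 (55.5, 63.1 and 58.4 CPM) and Cdkn1b (90.3, 75.6 and 77.6 CPM) varied less.

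The high Cdkn2c level belonged to mitosis-gene cells of EC_PROLIF, at 70.2 CPM (123 cells, 61.4 to 79.8), and not to the 33 such cells of other classes, at 11.3 CPM (6 UMIs, 4.15 to 24.6). EC_PROLIF cells with no mitosis gene were few, 14 cells with 12.8 CPM (6 UMIs, 4.70 to 27.9). Cdk4 stayed high in all 3 groups, at 223, 190 and 261 CPM, against 139.6 CPM in the 901 cells of other classes with no mitosis gene. Ccnd2 was low in all 3, at 10.5, 20.7 and 17.1 CPM, against 55.5 CPM in those 901 cells. Of the 33 cells 16 were EC_IMMAT and 6 EC_TIP. All cells of these 2 classes were at 16.3 and 10.7 CPM for Ccnd2 and 184 and 173 CPM for Cdk4. The part of class in these differences was not tested.

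Across 16 units (each a class in a library, 20 cells or more, INTERMEDIATE included), the levels of some of the genes moved together. Pearson's r of log2 CPM (5 CPM added) was -0.87 between Ccnd2 and Cdk4, 0.80 between Ccnd2 and Cdkn1a and -0.81 between Cdk4 and Cdkn1a. Ccnd1 and Cdk6 had an r of -0.66. Units of 1 library share its depth and preparation and the units have between 36 and 362 cells, so these values describe the pattern and were not tested. The units were 7 of intact and 9 of injured nerve, and Ccnd2, Cdk4 and Cdkn1a are the genes past 2-fold between the libraries. Every intact Ccnd2 level (266 CPM or more) lay above every injured one (265 CPM or less). These r values, and those of the similar genes below, thus include the difference between libraries. No r within a library is given. Among 2924 genes at a mean of 50 CPM or more, the pattern of Ccnd2 was most like that of Klf4 (r = 0.96), a transcription factor of flow-exposed endothelium, Fam129b (0.95) and Pltp (0.95). Cdk4 was most like Minos1, Cct5, a chaperonin subunit, and Hnrnpa1, an RNA-binding protein (0.95 each). Cdkn1a was most like Lims2 (0.91), Pttg1ip (0.89) and the junction gene Jam2 (0.88). Cdk6 was most like Gramd1a (0.92), Csnk1d (0.80) and Trip12 (0.75), and Cdkn1b most like Kdm2a (0.83), Akap9 (0.82) and Sdf4 (0.80). For Ccnd1 the nearest were Tpst2 (0.78), Selenop (0.77) and Pnkd (0.76), for Ccnd3 Baiap2 (0.76), Phc2 (0.72) and Itgb4 (0.72), and for Cdkn2c Ldha (0.72), Hist1h2ap (0.69) and Slc43a3 (0.67).

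Genes that act with or after these 8 were read from lists of named genes in pooled endothelium. The minimum mean of 10 CPM admits a gene that is low in intact nerve only if it is high after injury, so for lists low in intact nerve the levels of all listed genes are given and no count past 2-fold. A higher CPM here and below means any difference, however small. The share of all genes that were higher in this sense was not counted, and the median log2 ratio of all measured genes was 0.04. All 10 listed genes of cyclin E, cyclin A and their partners had a higher CPM after injury, with medians over genes of 4.07 and 17.0 CPM. The intervals of Ccne2 (ratio 1.16, 0.720 to 1.95) and Cdc6 (1.59, 0.938 to 2.88) included 1. Among the 10 were Cks2 (9.91 and 91.9 CPM) and Cks1b (8.15 and 79.9 CPM), small proteins that attach to Cdk2, and Ccna2 (1.54 and 28.8 CPM), the cyclin of S phase. Cdk2 itself was at 15.4 and 21.6 CPM.

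Of the DNA replication genes 14 of 15 listed had a higher CPM after injury, with medians over genes of 12.5 and 31.7 CPM. Tyms, which makes thymidylate, was at 15.4 and 70.9 CPM and Mcm5, part of the replicative helicase, at 4.40 and 35.7 CPM. Pcna, the DNA clamp, was the exception, at 74.4 and 53.7 CPM. The 16 listed mitosis genes were at 0 to 5.28 CPM in intact and 9.31 to 91.4 CPM in injured cells. The highest of these after injury was Ube2c (3.52 and 91.4 CPM), and Cdk1 was at 2.20 and 72.5 CPM.

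Of the retinoblastoma and E2F list 11 of 18 listed genes had a higher CPM after injury. Of the 11 measured 1 was higher at 2-fold, beside 4.79% of all measured genes, and none lower, beside 6.82%. The median log2 ratio of those 11 was 0.18, beside 0.04 for all measured genes. The higher one was Tfdp1, the dimer partner of E2F (12.5 and 40.6 CPM). E2f1 (2.42 and 11.5 CPM) also passed 2-fold with 5 CPM added, but its mean was under 10 CPM. Rb1 was at 38.1 and 25.9 CPM, a ratio of 0.679 (0.571 to 0.811), and Rbl2, which encodes p130, at 17.0 and 8.95 CPM.

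Of the other inhibitors of cyclin-dependent kinases 2 of 5 were measured. Of these 1 was lower, beside 6.82% of all measured genes. This was Cdkn1c (p57), at 75.7 and 33.3 CPM, 2.27-fold (1.99 to 2.59), while Cdkn2d (p19) was at 69.6 and 53.7 CPM. The other 3 had a mean under 10 CPM, and each had a higher CPM after injury. Cdkn3 was at 1.98 and 11.9 CPM, Cdkn2b at 1.76 and 3.60 CPM and Cdkn2a at 0 and 1.55 CPM. The interval of the Cdkn2b ratio (2.05, 0.984 to 4.92) included 1. Of the p53 targets 2 of 15 measured were lower, beside 6.82% of all measured genes, and none higher, with a median of -0.05 close to that of all genes. The lower ones were Fas, a death receptor (116 and 12.0 CPM), and Btg2, an antiproliferative gene (1142 and 338 CPM), whereas Bax was at 106.6 and 178.9 CPM and Mdm2, named outside the rule as the p53 ligase, at 42.0 and 40.4 CPM. Of the FoxO factors and targets 4 of 9 measured genes were lower, beside 6.82% of all measured genes, and 1 higher, beside 4.79%. Their median log2 ratio was -0.79, the value of Foxo4 (17.2 and 7.85 CPM), beside 0.04 for all measured genes. Of the other FoxO factors listed, Foxo1 was at 153 and 158 CPM, a ratio of 1.03 (0.947 to 1.12) whose interval includes 1. Foxo3 was at 17.6 and 12.0 CPM, a ratio of 0.682 (0.527 to 0.889). Foxo4, Sesn1 and Sesn3 were under 10 CPM in the library where they were lower. The 4 counted as lower were Pik3ip1, an inhibitor of PI3 kinase (60.1 and 14.7 CPM), Tob1 (227 and 66.5 CPM), Txnip (496 and 181 CPM) and Sesn1 (30.2 and 9.91 CPM). The 1 counted as higher was Sesn3 (9.91 and 27.2 CPM). None of the 3 genes of the kinase that activates cyclin-dependent kinases and none of the 7 measured genes for turnover of D-type cyclins and p27 passed 2-fold in either direction, the furthest being Ddb1 (70.9 and 126.5 CPM).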

How the data were processed

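The deposited matrices hold unnormalized counts (UMIs of each gene in each barcode) in 1 library of intact and 1 of injured nerve, with a table of a class for each annotated cell. Cell Ranger 3.0.2 and 6.1.2, Seurat 4.0.1 and the build GRCm38 (mm10) are named, with no role, per the submitters' processing notes. The sources used here do not say how cells were filtered, classed or checked for doublets, and no doublet caller was run.

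The intact library held 1618 barcodes with 9401203 UMIs and the injured one 2023 with 27157892 UMIs. Cells of the authors' 9 endothelial classes were used, without shallower partners of shared barcodes, whose median depths were 654 and 767.5 UMIs. CPM carry exact Poisson intervals, shares Clopper-Pearson intervals and ratios exact conditional binomial intervals, all at 95%. The ratio code was tested on simulated data. Thinning drew 3000 UMIs per cell without replacement (seed 1). Promoter windows leave out bases after the start.

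The 8 members and all gene lists were chosen with earlier results of these data known. Named genes are the 8 members, up to 2 highest and 2 lowest log2 ratios per list, and the 3 genes most similar to each member. Txnip, Sesn1, Ccna2 and Mdm2 were named after their values were seen. Ccne2, Cdc6, E2f1, Cdkn2a, Cdkn2b, Cdkn3, Foxo1, Foxo3 and Foxo4 were also named from the lists outside that rule. Alternatives changed cells, depth, weighting, scaling, the added CPM and the minimum CPM. Python 3.11.15, numpy 2.4.6, scipy 1.17.1, pandas 2.3.3 and matplotlib 3.10.9 were used.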

Additional observations from a re-analysis of the deposited data

Results flagged for a closer look

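Ccnd1 differed in opposite directions between classes. Its ratio of injured to intact CPM was 1.42 (interval 1.11 to 1.83) in EC_CAP-PV-, but 0.422 (0.279 to 0.616) in EC_BAR and 0.682 (0.607 to 0.768) in EC_VEN-PV+. Cdkn1a was likewise higher in EC_BAR, with a ratio of 1.73 (1.31 to 2.27), and lower in EC_ART at 0.398 (0.328 to 0.482), in EC_CAP-PV- at 0.536 (0.445 to 0.645) and in EC_VEN-PV+ at 0.387 (0.328 to 0.458). With 1 library per condition these differences between classes were not tested. The injured EC_BAR values rest on 36 cells.

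Barcodes that the authors' table gives no class, which entered the comparisons only in the setting with all barcodes, also held these transcripts. After shallower partners were left out, 738 intact barcodes had summed D-type cyclins at 681 CPM and summed inhibitors at 203 CPM, and 516 injured barcodes had 565 and 245 CPM. A count of 0 would have allowed up to 0.647 and 0.440 CPM. In these barcodes Ccnd2 was at 334 and 258 CPM and Ccnd3 at 172 and 105 CPM.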

How the results depend on the processing

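No member called at least 2-fold changed direction under the alternatives run, and the count of higher members was 1, Cdk4, in all of them. The count of lower members was 2 except with classes weighted equally (1) and with all barcodes (1), where Cdkn1a was at -0.66 and -0.73 and Ccnd2 remained. The log2 ratio of summed D-type cyclins, -1.43, was -1.26 in thinned cells, -1.21 when CPM were averaged over cells, -1.23 with classes weighted equally, -1.37 without the deepest 5% of cells, -1.03 with all barcodes and -1.20 in cells without markers of other cell types, a setting added after seeing the data. For summed inhibitors, -0.75, the same settings gave -0.85, -0.63, -0.40, no move beyond counting error without the deepest cells, -0.35 and -0.85. As single genes below 2-fold, Ccnd1 turned from -0.26 to 0.02 in cells without other markers, Cdkn1b from -0.12 to 0.09 with classes weighted equally, and Ccnd3 from 0.04 to -0.67 with all barcodes. The cause of these moves was not tested.

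No paired analysis was possible because each condition is 1 library, and there was no replicate to leave out. Cdk6 and Cdkn2c rest on 7 to 33 UMIs in the intact classes compared, and where the interval of their ratio includes 1 a difference was not detectable at this depth. Shares of cells depend on depth and on the sort.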
